A study of Mus musculus with 15 samples.

Results

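Glycolysis breaks glucose down to pyruvate and lactate, and several of its steps can be run by alternative isoenzymes that are encoded by separate genes. The 10 genes described here were chosen by name as such isoforms: Slc2a1 for glucose uptake, Hk1 and Hk2 for the hexokinase step, Pfkl and Pfkp for phosphofructokinase, Aldoa for aldolase, Pkm and Pklr for pyruvate kinase, and Ldha and Ldhb for lactate dehydrogenase. They are 10 of 18193 genes tested, and 26 of the 34945 probe sets that carry exactly 1 gene symbol measure them. All 10 were measured, and no filter on low values was applied.

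Expression was measured on 15 Affymetrix mouse arrays, 3 for each of 5 groups of cultured cells, in a study of how stromal cells are turned into hepatocyte-like cells and back. HD28 cells were mouse mesenchymal stromal cells (MSC) given HGF at 20 ng/ml, bFGF at 10 ng/ml and nicotinamide at 0.61 g/L for 7 days, followed by oncostatin M at 20 ng/ml, dexamethasone at 1 µmol/L and ITS+ premix. dHD28 cells were HD28 cells put back into the medium of the MSC, low glucose DMEM with 10% FBS. MLC were primary hepatocytes moved into that medium with hTGF-β1 at 10 ng/ml until day 7, 5 ng/ml until day 14 and 1 ng/ml until day 28, and without it afterwards. The hepatocytes they are set against were mouse primary hepatocytes in DMEM/F12 with 10% FBS, and the MSC had no differentiation medium. Hepatocytes differ from MSC and MLC in medium as well as in cell type, and in those comparisons the medium and the cell type cannot be told apart. The labels give no strain, age or number of animals, and nothing says that the replicates came from separate animals or cultures, so the p-values measure only the spread between these arrays, which may be technical.

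The isoforms differ in where they are used and how they are controlled. In adult liver, pyruvate kinase comes mainly from Pklr, which is induced by glucose and insulin, while most other adult tissues and proliferating cells use Pkm. Hepatocytes phosphorylate glucose with a hexokinase of low affinity rather than with Hk1 or Hk2, and they take glucose up through Slc2a2 rather than Slc2a1. Lactate dehydrogenase is a tetramer of the products of Ldha and Ldhb, and Ldha is the main form of skeletal muscle and liver and a known target of the hypoxia factor Hif1a and of Myc.

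The stretches before the start sites of 4 of these genes are shown because these genes carry the main contrasts below: Pklr was the member that was higher in hepatocytes, Pkm had the largest fall, Ldha was the member whose arrays overlapped between hepatocytes and MSC, and Slc2a1 was, with Ldha, lower on every HD28 array than on any MSC array. Each is the 250 bases before an annotated start, from RefSeq on build GRCm38.p6, read 5′ to 3′ on the strand of the gene. They lie at chr3:89136373-89136622 (Pklr, plus strand, the second of its 2 annotated starts), chr9:59656326-59656575 (Pkm, plus strand), chr7:46845554-46845803 (Ldha, plus strand) and chr4:119108495-119108744 (Slc2a1, plus strand). Capitals mark matches on either strand to ACGTG and its variant GCGTG, the core of the element that hypoxia factors bind, to the E-box CACGTG, to the GC box GGGCGG, to the TATA box TATAAA, and to CACGGG, whose facing copies 5 bases apart spell the carbohydrate response element of Pklr.
Pklr: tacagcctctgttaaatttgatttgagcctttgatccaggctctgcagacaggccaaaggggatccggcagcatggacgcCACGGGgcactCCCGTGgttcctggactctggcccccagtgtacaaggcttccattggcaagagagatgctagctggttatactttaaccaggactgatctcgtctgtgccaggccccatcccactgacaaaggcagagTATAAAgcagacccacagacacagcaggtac
Pkm: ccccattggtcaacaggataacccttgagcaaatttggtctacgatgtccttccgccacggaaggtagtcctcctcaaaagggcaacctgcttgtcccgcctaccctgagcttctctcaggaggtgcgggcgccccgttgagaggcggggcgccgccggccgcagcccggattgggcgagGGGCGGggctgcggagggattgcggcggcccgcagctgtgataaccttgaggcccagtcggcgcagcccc
Ldha: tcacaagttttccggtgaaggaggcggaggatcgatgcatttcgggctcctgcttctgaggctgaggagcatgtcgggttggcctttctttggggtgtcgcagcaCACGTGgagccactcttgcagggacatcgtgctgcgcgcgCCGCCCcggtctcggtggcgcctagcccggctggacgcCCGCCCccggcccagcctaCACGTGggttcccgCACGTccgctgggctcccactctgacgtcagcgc
Slc2a1: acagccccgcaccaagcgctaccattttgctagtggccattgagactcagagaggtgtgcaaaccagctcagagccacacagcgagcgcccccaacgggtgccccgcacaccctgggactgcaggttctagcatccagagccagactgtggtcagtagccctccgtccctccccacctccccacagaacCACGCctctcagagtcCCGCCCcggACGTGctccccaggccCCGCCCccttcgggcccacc

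The Pklr stretch holds a TATAAA 31 bases before the start and facing copies of CACGGG at 170 and 159 bases before it. Of 32851 annotated stretches of the same length, 12.4% hold TATAAA, 8.46% hold CACGGG, and 1 holds the facing pair at 5 bases apart, which is this one. The spelling was added after the Pklr sequence had been seen, so its rarity is a description only. Of the 16 stretches annotated for the 10 genes, the first of Ldha was the only one with CACGTG, which is found in 6.02% of all stretches. It has CACGTG at 145 and 48 bases before the start, a further ACGTG at 34 bases, and 2 matches to GGGCGG. Each CACGTG also counts as an ACGTG on both strands, which gives 5 ACGTG matches there. The Slc2a1 stretch has ACGTG 36 bases before the start, GCGTG at 61 and GGGCGG at 45 and 20, while the Pkm stretch shown has 1 match, a GGGCGG at 70. Pkm has 2 annotated starts, and the stretch before its other start, not shown, holds an ACGTG at 75. ACGTG is found in 16.6%, GCGTG in 28.2% and GGGCGG in 32.7% of all stretches. A match is a description of the letters and does not show binding, and no match says only that these letters are not in this window.

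The hepatocyte marker genes fitted the labels on 14 of the 15 arrays. The mean log2 level of 10 hepatocyte markers was 13.4 to 13.5 on the hepatocyte arrays and 4.34 to 4.72 on the dHD28, MLC, MSC and first 2 HD28 arrays, but 12.3 on HD28 replicate 3. Albumin (Alb), the main plasma protein made by hepatocytes, was 13.8 on that array against 3.38 and 3.74 on the other HD28 arrays. The macrophage marker mean was 5.39 on that array against 3.70 and 3.99 on the other HD28 arrays, the liver endothelial mean 4.53 against 3.72 and 4.05, and the 3′ minus 5′ signal of actin, a sign of RNA quality, 0.94 against 0.29 and 0.23. Without it, HD28 comparisons moved by at most 0.16 on the log2 scale for the probe set that stands for each of the 10 genes. Some other sets differed more on that array. A Pfkp set read 5.39, against 7.14 and 7.10 on the other HD28 arrays, and a Pklr set 5.50, against 3.96 and 3.89. For the 10 genes, the values without that array are given beside the results that follow. HD28 changes and calls given for single genes outside the 10 include it. Array medians were 4.84 to 4.95 and lower quartiles 3.43 to 3.70, and the number of arrays limits the precision.

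The comparison of hepatocytes with MSC asked which isoforms each cell type carries. Of the 10 genes, 8 were lower in hepatocytes, 1 was higher (Pklr) and 1, Ldha, did not pass the test. A gene was called at an adjusted p under 0.05 (limma, Benjamini-Hochberg over all genes) and a fold of at least 2, and 30.1% of all genes were called, 18.3% as lower and 11.8% as higher. The median log2 change of the 10 genes was -2.43, against 0.04 for all genes. The arrays of the groups did not overlap for 9 of the 10 genes, as for 52.6% of all genes. In cell mixtures, fewer cells of a type and less RNA per cell cannot be told apart.

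**Figure D1:**
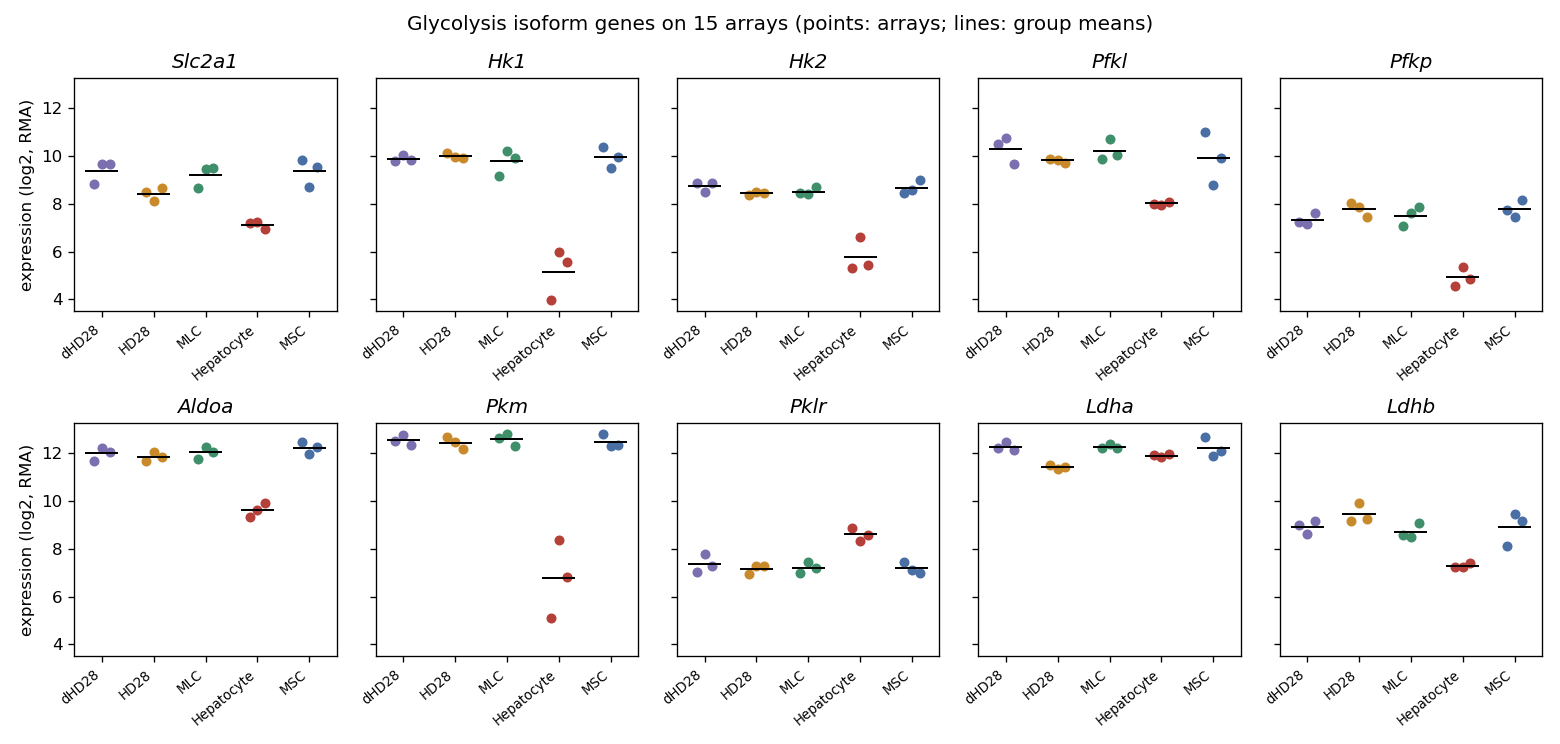
Log2 expression (RMA) of each of the 10 genes on the 15 arrays, by group. Points are arrays and lines are group means. The 3 hepatocyte arrays lie below all other arrays in 8 panels and above them for Pklr, while for Ldha they lie above the HD28 arrays and overlap the lowest MSC array.

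Glucose entry was represented by Slc2a1, which encodes the widespread glucose transporter GLUT1. Its log2 expression was 7.21, 7.24 and 6.94 in hepatocytes, against 9.85, 8.70 and 9.53 in MSC. It was 4.70-fold lower in hepatocytes (log2 change -2.23 ± 0.32 SE, adjusted p = 7.2e-05). The hepatocyte arrays lay close together and well below the lowest MSC array. All 3 of its probe sets fell, by 1.83 to 2.41 on the log2 scale.

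Hk1 and Hk2 encode the hexokinases of high glucose affinity, which trap glucose in the cell by phosphorylation. Hk1 was 3.97, 5.97 and 5.56 in hepatocytes, against 10.37, 9.51 and 9.98 in MSC, a log2 change of -4.79 ± 0.42 (adjusted p = 1e-06, 27.6-fold). Hk2 was 5.30, 6.61 and 5.44 in hepatocytes, against 8.45, 8.58 and 9.02 in MSC, a log2 change of -2.90 ± 0.28 (adjusted p = 2.5e-06, 7.45-fold). For both genes the first hepatocyte array was the lowest and the second the highest, yet none came near the MSC arrays.

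Pfkl and Pfkp encode the liver and platelet forms of phosphofructokinase, the main control point of the pathway. Pfkl, whose name comes from the liver, was 8.01, 7.96 and 8.10 in hepatocytes, against 11.00, 8.80 and 9.92 in MSC. Its log2 change of -1.88 ± 0.43 (adjusted p = 0.0028) was therefore a fall, although the MSC arrays were spread over more than the size of the change. Pfkp was 4.54, 5.37 and 4.85 in hepatocytes, against 7.75, 7.45 and 8.17 in MSC, with a log2 change of -2.87 ± 0.27 (adjusted p = 1.9e-06). Each of these genes had 3 probe sets, and 1 of the 3 did not pass the test, with log2 changes of -0.49 for Pfkl and -0.22 for Pfkp.

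Aldoa encodes the aldolase of muscle and most other tissues, which splits the sugar into triose phosphates. It was 9.32, 9.63 and 9.92 in hepatocytes, against 12.46, 11.99 and 12.28 in MSC. The log2 change was -2.62 ± 0.21 (adjusted p = 4.1e-07), and its 5 probe sets fell by 1.86 to 2.62. All 5 are of a class marked by the maker as able to bind related transcripts, so signal of a related transcript cannot be told apart from Aldoa.

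Pyruvate kinase makes pyruvate and ATP in the last step, and of the pairs within the 10 genes it showed the widest contrast. Pkm was 5.11, 8.38 and 6.81 in hepatocytes, against 12.80, 12.30 and 12.37 in MSC. Its log2 change was -5.72 ± 0.56 (adjusted p = 2.4e-06), or 52.8-fold, the largest among the 10 genes. Pkm transcripts are spliced into an adult and a proliferative form, and the single probe set was not assigned to either here. Pklr was 8.88, 8.34 and 8.60 in hepatocytes, against 7.44, 7.13 and 6.99 in MSC, with a log2 change of 1.42 ± 0.22 (adjusted p = 0.00013).

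The size of the Pklr change depended on the probe set. The set that stands for the gene, chosen for its highest mean, gave the smallest rise. The other 2 sets gave log2 changes of 3.04 ± 0.28 and 4.17 ± 0.36 (adjusted p = 2.6e-06 and 1.5e-06). The set with the largest change read 8.64, 7.92 and 7.92 in hepatocytes, against 4.14, 3.97 and 3.85 in MSC. All 3 sets agreed in direction.

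Lactate dehydrogenase differed between its 2 genes. Ldha was 11.92, 11.84 and 11.97 in hepatocytes, against 12.71, 11.90 and 12.11 in MSC. Its log2 change of -0.33 ± 0.18 did not pass the test (adjusted p = 0.17, 95% interval -0.73 to 0.07), and the arrays overlapped. Ldhb was 7.25, 7.22 and 7.40 in hepatocytes, against 8.14, 9.46 and 9.19 in MSC, with a log2 change of -1.64 ± 0.31 (adjusted p = 0.00066). Its other 3 probe sets fell further, by 3.29 to 4.83. The set with the largest fall read 2.73 on hepatocyte array 1, under the lower quartile of that array (3.70), so its size depends on a floor. The other 2 are of a class marked by the maker as able to bind related transcripts.

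**Figure D2:**
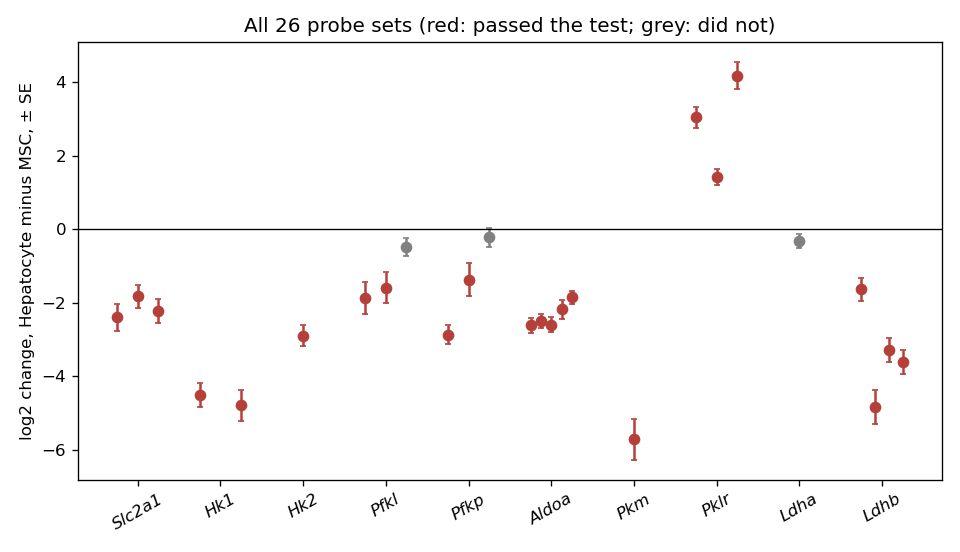
Log2 change, hepatocytes minus MSC, of each of the 26 probe sets of the 10 genes (points, with SE bars), in red where the set passed the test. Of the sets, 3 were higher (all Pklr), 20 were lower and 3 did not pass, 1 each of Pfkl, Pfkp and Ldha.

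Taken probe set by probe set, 23 of 26 were called, against 22.2% of all probe sets. Of the 10 genes, 7 had more than 1 set, and no called sets of a gene had opposite signs.

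The within-array difference of 2 isoforms removes what an array shares between them. Its level has no meaning, since probe sets bind with different strength, but its shift between groups does. Pkm minus Pklr was -3.77, 0.04 and -1.79 on the hepatocyte arrays, against 5.35, 5.17 and 5.38 on the MSC arrays, a shift of -7.14 ± 0.73 (SE pooled over the 5 groups). No other pair of isoforms among the 10 genes shifted as far. With 3 arrays against 3 an exact permutation test cannot give a p below 0.1, which this shift reached (adjusted p = 0.15 over 20 tests of pairs).

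Hk2 minus Hk1 was 1.33, 0.64 and -0.11 on the hepatocyte arrays, against -1.92, -0.94 and -0.96 on the MSC arrays. The shift of 1.89 ± 0.42 (exact permutation p = 0.1) records that Hk1 was the further reduced of the hexokinases. Ldha minus Ldhb shifted by 1.31 ± 0.50 in hepatocytes relative to MSC, with exact permutation p = 0.2 and overlapping arrays. Without MSC replicate 1, whose Ldhb was the lowest of its group, that shift was 1.94, and with the mean of all probe sets of each gene it was 3.01. Pfkp minus Pfkl shifted by -0.99 ± 0.53 (exact permutation p = 0.3), and by -0.17 with the mean of all probe sets.

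Slc2a1 was also set against Slc2a2, which encodes the liver glucose transporter GLUT2. Slc2a2 was 12.38, 11.95 and 12.34 in hepatocytes, against 2.64, 2.65 and 2.51 in MSC. The within-array difference Slc2a1 minus Slc2a2 shifted by -11.86 ± 1.41 (exact permutation p = 0.1). The Slc2a2 level in MSC was under the lower quartile of the arrays and may be background. With such levels set to the lower quartile of each array the shift was -10.92, so that its size depends on a floor.

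**Figure D3:**
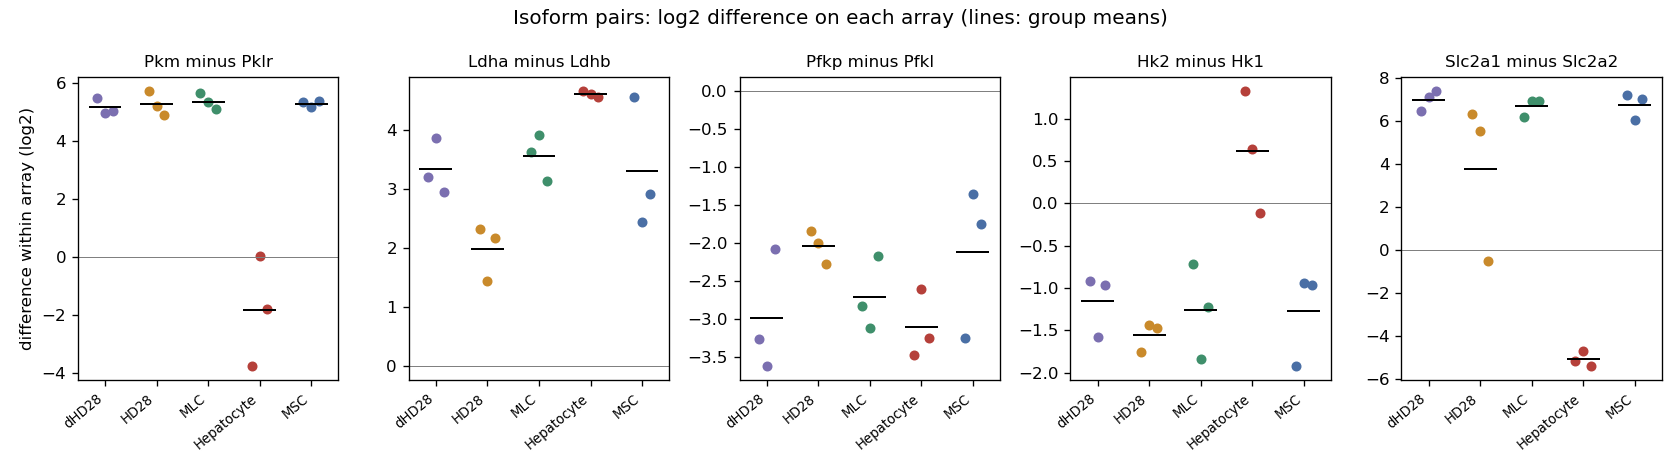
Difference of log2 expression between 2 isoforms on each array, by group (points are arrays, lines are group means); the height of 0 has no meaning across probe sets. Pkm minus Pklr and Slc2a1 minus Slc2a2 are lower on the 3 hepatocyte arrays than on any MSC or MLC array, and HD28 replicate 3 lies at -0.51 in the last panel.

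The hepatocyte arrays differed among themselves in some of the genes that were low there. Pkm, Hk1, Hk2 and Pfkp were each lowest on array 1 and highest on array 2, with Pkm spread over 5.11 to 8.38. Pfkl (7.96 to 8.10), Ldhb (7.22 to 7.40) and Slc2a1 (6.94 to 7.24) lay close together. Markers of other liver cells were detectable on the same arrays. The mean of 10 Kupffer and macrophage markers was 6.43, 7.94 and 8.20 on hepatocyte arrays 1 to 3, against 4.07 to 4.18 in MSC, and all 10 passed the test as higher in hepatocytes. The mean of 6 liver endothelial markers was 5.51, 6.47 and 6.57, against 3.87 to 4.06 in MSC, and all 6 passed.

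The mean of 7 stromal markers was 4.86, 6.41 and 6.52 on hepatocyte arrays 1 to 3, against 10.7 to 11.4 in MSC. Of these, 6 passed as lower in hepatocytes. Thy1 overlapped, at 4.92, 4.76 and 4.23 in hepatocytes against 5.91, 3.91 and 4.35 in MSC. The mean of 5 proliferation markers was 4.69, 5.67 and 4.41, against 9.68 to 10.3 in MSC. The macrophage, endothelial and stromal means were lowest on array 1, where Pkm and Hk1 were lowest too. They were highest on array 3, whereas Pkm and Hk1 were highest on array 2. The proliferation mean was highest on array 2, where Pkm was highest, but lowest on array 3, where Pkm was not lowest. No marker on these lists had a hepatocyte mean under the lower quartile of the arrays, other than 1 proliferation marker. The part of these cells in the Pkm, Hk1, Hk2 and Pfkp levels of hepatocytes was not tested. The 3′ minus 5′ signal of actin was 0.66, 1.24 and 1.23 on the hepatocyte arrays, against 0.13 to 0.44 on the MSC arrays, and its part was not tested.

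**Figure D4:**
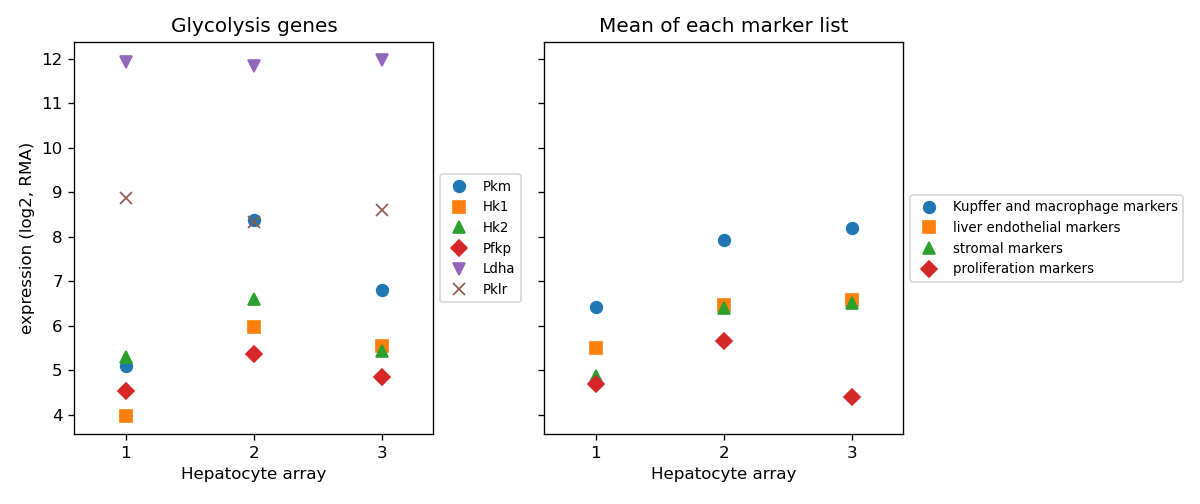
Log2 expression on hepatocyte arrays 1, 2 and 3 of 6 of the genes (left) and of the mean of 4 marker lists (right). Pkm, Hk1, Hk2 and Pfkp are lowest on array 1 and highest on array 2, and Ldha stays at 11.84 to 11.97. The macrophage marker mean is lowest on array 1 and highest on array 3.

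The comparison of MLC with hepatocytes covered the same genes after hepatocytes had been taken into stromal medium with TGF-β1. The groups differed in medium, TGF-β1 and the culture that went with it, and these cannot be told apart. Markers of other liver cells were detectable on the hepatocyte arrays, and the arrays do not show which of the cells the MLC came from. Of the 10 genes, 8 were higher in MLC, 1 was lower (Pklr) and Ldha did not pass the test. Of all genes, 30.5% were called, 18.4% as higher and 12% as lower. The median log2 change of the 10 was 2.30, against -0.06 for all genes. MLC shared their hepatocyte arrays with the comparison above, so the mirror image of the signs is not a separate result.

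Pkm was 12.64, 12.82 and 12.31 in MLC, against 5.11, 8.38 and 6.81 in hepatocytes, which is 56.7-fold higher (log2 change 5.83 ± 0.56, adjusted p = 2e-06). Hk1 was 9.18, 10.23 and 9.92 in MLC, with a log2 change of 4.61 ± 0.42 (adjusted p = 1.3e-06). For neither gene did any MLC array approach the highest hepatocyte array. Hk2 rose by 2.73 ± 0.28, Pfkp by 2.59 ± 0.27, Aldoa by 2.41 ± 0.21, Pfkl by 2.19 ± 0.43, Slc2a1 by 2.10 ± 0.32 and Ldhb by 1.43 ± 0.31. Adjusted p for these 6 lay between 7.9e-07 and 0.0018.

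Pklr was 6.98, 7.47 and 7.21 in MLC, against 8.88, 8.34 and 8.60 in hepatocytes, and fell by 1.39 ± 0.22 on the log2 scale (adjusted p = 0.00015). Pkm minus Pklr shifted by 7.21 ± 0.73 (exact permutation p = 0.1). Ldha was 12.22, 12.41 and 12.21 in MLC, against 11.92, 11.84 and 11.97 in hepatocytes. Every MLC array was above every hepatocyte array for Ldha, but the log2 change of 0.37 ± 0.18 did not pass (adjusted p = 0.12), and groups fail to overlap in this comparison for 57% of all genes. When arrays were centred on housekeeping genes rather than kept as deposited, the direction for Ldha turned, to -0.18 in MLC minus hepatocytes and 0.19 in hepatocytes minus MSC.

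**Figure D5:**
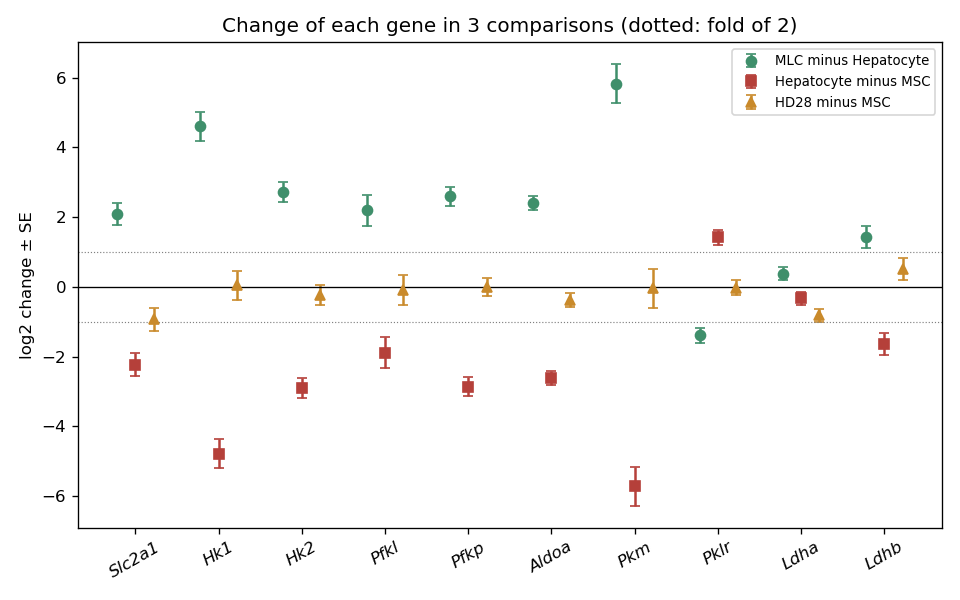
Log2 change (points, with SE bars) of the 10 genes in MLC minus hepatocytes (circles), hepatocytes minus MSC (squares) and HD28 minus MSC (triangles); dotted lines mark a fold of 2. The circles run from -1.39 (Pklr) to 5.83 (Pkm) and the squares from -5.72 (Pkm) to 1.42 (Pklr), while every triangle lies between the dotted lines.

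In MLC minus MSC, 0 of the 10 genes were called by limma, as were 0% of all genes. At an unadjusted p under 0.05 there were 0 of the 10 and 91 (0.5%) of all genes. That share is below what such a threshold passes with no difference at all. The test was therefore strict here, and 0 calls do not show that MLC and MSC are alike. The median log2 change of the 10 was -0.15, and the arrays overlapped for each of them, while 5.28% of all genes did not overlap. For Pkm, MLC averaged 12.59 ± 0.26 and MSC 12.49 ± 0.27 (SD, n = 3 each), and for Pklr MLC averaged 7.22 ± 0.25 and MSC 7.19 ± 0.23. Hepatocyte markers averaged 4.46 to 4.55 in MLC, and the macrophage markers 4.02 to 4.11, so that neither was above its level in MSC.

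HD28 minus MSC compared cells after the hepatogenic protocol with untreated cells, which differed in added factors, medium and time in culture, and these cannot be told apart. In it 0 of the 10 genes were called, against 6.77% of all genes (3.24% higher and 3.52% lower). At an unadjusted p under 0.05 there were 2 of the 10, Ldha and Slc2a1, and 23.9% of all genes. Both pointed down. The count was 0 without HD28 replicate 3 as well, where 5.77% of all genes were called.

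Ldha was 11.50, 11.36 and 11.42 in HD28, against 12.71, 11.90 and 12.11 in MSC. The log2 change of -0.81 ± 0.18 had an adjusted p of 0.013 in limma but a fold of 1.75, under the fold of 2 that was required. Each HD28 array lay below each MSC array, as happens for 29.7% of all genes here, and its 95% interval was -1.21 to -0.41. Without HD28 replicate 3 the log2 change was -0.81 (adjusted p = 0.038). HD28 cells had the lowest mean Ldha of the 5 groups, with a log2 change against hepatocytes of -0.48 (1.39-fold). That difference lay at the threshold, with an adjusted p of 0.049 over genes and 0.061 over probe sets in limma, 0.095 without HD28 replicate 3 and 0.059 with the replicate number as a block.

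Slc2a1 was 8.51, 8.11 and 8.67 in HD28, against 9.85, 8.70 and 9.53 in MSC. The arrays just failed to overlap, and the log2 change of -0.93 ± 0.32 did not pass (adjusted p = 0.091, interval -1.63 to -0.23). Without MSC replicate 2, the lowest of its group, it was -1.26 and passed (adjusted p = 0.029). Without HD28 replicate 3 it was -1.05 (adjusted p = 0.11). In dHD28 minus HD28, its 3 probe sets gave 1 call, as higher, and in HD28 minus MSC 0 of the 26 sets were called, against 4.6% of all sets.

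Neither gene of the pyruvate kinase pair passed the test in HD28 minus MSC. Pkm was 12.68, 12.49 and 12.17 in HD28, with a log2 change against MSC of -0.04 ± 0.56 and a 95% interval of -1.24 to 1.16. The SE is pooled over all 5 groups, and Pkm had an SD of 1.64 in hepatocytes, against 0.26 in HD28 and 0.27 in MSC. The Pkm interval therefore also carries the spread of the hepatocyte arrays, which are not part of this comparison. Pklr was 6.94, 7.27 and 7.27 in HD28, with a change of -0.03 ± 0.22 and an interval of -0.50 to 0.45. Pkm minus Pklr shifted by -0.01 (exact permutation p = 1), and the interval of neither gene reaches the hepatocyte change. Without HD28 replicate 3 the changes were 0.10 for Pkm and -0.08 for Pklr, and the shift was 0.18. On HD28 replicate 3, the array with a high albumin level, the Pklr set with the largest hepatocyte change read 5.50, against 3.96 and 3.89 on the other HD28 arrays, and Slc2a2 read 9.18, against 2.17 and 2.60. Pkm and Hk1 on that array, at 12.17 and 9.91, were each the lowest of the HD28 group by a small margin. The margin was larger on some other sets. The other Hk1 set read 8.21 there, against 9.51 and 8.84, and a Pfkp set 5.39, against 7.14 and 7.10.

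Ldha minus Ldhb was 2.33, 1.44 and 2.17 on the HD28 arrays, against 4.57, 2.44 and 2.92 on the MSC arrays. The shift of -1.33 ± 0.50 (exact permutation p = 0.1, adjusted 0.15) became -0.70 without MSC replicate 1 and -1.42 without HD28 replicate 3. Ldhb itself was 9.17, 9.92 and 9.26 in HD28 and did not pass against MSC (log2 change 0.52 ± 0.31, adjusted p = 0.35; 0.62 without HD28 replicate 3). Relative to hepatocytes, where the arrays of HD28 and hepatocytes did not overlap, the same difference shifted by -2.64, and by -2.73 without HD28 replicate 3.

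Against hepatocytes, HD28 cells had 8 of the 10 genes higher and Pklr lower, with 26.5% of all genes called, 15.3% as higher and 11.2% as lower. The arrays of HD28 and hepatocytes did not overlap for any of the 10 genes, as for 55.6% of all genes. The counts were the same without HD28 replicate 3. The changes ranged from -1.45 ± 0.22 for Pklr to 5.68 ± 0.56 for Pkm. Hk1 was 28.5-fold and Ldhb 4.46-fold higher in HD28, and Slc2a1 2.47-fold higher. Without replicate 3 these were 29.4-fold, 4.77-fold and 2.27-fold. The size again depended on the probe set, with log2 changes of 3.79, 4.02 and 5.40 on the other Ldhb sets against 2.16 on the set that stands for the gene, and -3.16 and -3.71 on the other Pklr sets. The limits given above for the other Ldhb sets hold here as well. Of the 3 Slc2a1 sets, 1 (log2 change 0.99, adjusted p = 0.03) stayed under the required fold. Slc2a1 minus Slc2a2 shifted by 8.88, and by 11.02 without replicate 3, the only HD28 array with a Slc2a2 level above the lower quartile.

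When HD28 cells were returned to stromal medium, 0 of the 10 genes were called in dHD28 minus HD28, against 8.82% of all genes (4.63% higher and 4.19% lower). At an unadjusted p under 0.05 in limma there were 2 of the 10, Ldha and Slc2a1, and 26.4% of all genes. Ldha was 12.22, 12.50 and 12.13 in dHD28, against 11.50, 11.36 and 11.42 in HD28, a log2 change of 0.85 ± 0.18 (adjusted p = 0.0078, 1.80-fold). Slc2a1 was 8.82, 9.68 and 9.68 in dHD28, against 8.51, 8.11 and 8.67 in HD28, a change of 0.96 ± 0.32 that did not pass (adjusted p = 0.067). Without HD28 replicate 3, 0 of the 10 and 7.35% of all genes were called, with Ldha at 0.85 (adjusted p = 0.025) and Slc2a1 at 1.08 (adjusted p = 0.086). For both genes every dHD28 array was above every HD28 array, and 29.4% of all genes had arrays that did not overlap here. In dHD28 minus MSC, 0 of the 10 genes and 0% of all genes were called by limma. At an unadjusted p under 0.05 there were 0 of the 10 and 205 (1.13%) of all genes. As in MLC minus MSC, that share is below what the threshold passes with no difference, so 0 calls do not show likeness. The arrays of dHD28 and MSC overlapped for each of the 10, while 4.94% of all genes did not overlap. The comparisons of HD28 with MSC and with dHD28 share the HD28 arrays, so the opposite signs of Ldha in them are not separate results.

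The changes on return to stromal medium, MLC minus hepatocytes and dHD28 minus HD28, were also set against each other, in a contrast added after the data had been seen. By construction it is the sum of HD28 minus hepatocytes and MLC minus dHD28. MLC minus dHD28 lay between -0.23 and 0.18 for the 10 genes (adjusted p = 1 in limma), so for them the contrast restates the difference between HD28 cells and hepatocytes and is not a separate result. It called 7 of the 10 genes. Of all genes, 23.7% passed that test, 13.8% as higher and 9.96% as lower. It was 5.73 for Pkm, against 5.68 in HD28 minus hepatocytes, and -1.59 for Pklr, against -1.45.

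HD28 cells also had lower levels of proliferation markers, whose mean was 7.76 to 8.05 there, against 9.68 to 10.3 in MSC and 9.95 to 10.4 in dHD28. All 5 measured proliferation markers passed as lower in HD28 minus MSC and as higher in dHD28 minus HD28. The part of proliferation in the Ldha and Slc2a1 values was not tested.

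The order of the group means was similar for most of the genes. Hepatocytes were lowest for Slc2a1, Hk1, Hk2, Pfkl, Pfkp, Aldoa, Pkm and Ldhb and highest for Pklr, and in each of these 9 orders the step next to hepatocytes was the only one that passed an adjusted p of 0.05. Between the 4 other groups no neighbouring step passed, which with 3 arrays per group does not show that they were alike. Groups further apart in an order are not compared by these steps. Slc2a1 ran from dHD28 (9.39 ± 0.50) through MSC (9.36 ± 0.59), MLC (9.23 ± 0.47) and HD28 (8.43 ± 0.29) to hepatocytes (7.13 ± 0.16; SD, n = 3 each). Ldha ran from MLC (12.28 ± 0.11) and dHD28 (12.28 ± 0.19) through MSC (12.24 ± 0.42) and hepatocytes (11.91 ± 0.07) to HD28 (11.43 ± 0.07), and its last step, at an adjusted p of 0.049 in limma, was the only one under the threshold.

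Over the 15 arrays, the genes most like each member by Pearson's r among 13644 genes were led by Tuba1a for Pkm (0.998), Scd2 for Hk1 (0.992), B9d1 for Aldoa (0.992) and Mfge8 for Hk2 (0.986). Pklr was most like Odf3b (0.979) and Pfkp most like Lars (0.983). Ldha was most like Acot7 (0.976) and Fkbp4 (0.967), Slc2a1 most like Dedd (0.977), Pfkl most like Mfsd5 (0.969) and Ldhb most like Fkbp7 (0.967). These values are descriptions: for all but Ldha they rest mainly on the step between the 3 hepatocyte arrays and the other 12.

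Of 18 further glycolytic enzymes measured, 2 were higher and 4 lower in hepatocytes than in MSC, where 30.1% of all genes were called. Their median log2 change was -0.13. The enolases Eno3 and Eno2, the muscle and neuronal forms, fell by 4.47 and 4.09, and Pgam1, a phosphoglycerate mutase, had a log2 change of -1.58. Eno2 read 4.92, 3.04 and 3.03 on hepatocyte arrays 1 to 3. The last 2 values lay under the lower quartiles of their arrays (3.62 and 3.66), so the size of its fall depends on a floor. Adpgk, which uses ADP to phosphorylate glucose, fell by 1.24, while Galm, which interconverts the anomers of aldohexoses, and Aldoc, the brain aldolase, were higher by 2.46 and 1.57. Eno3 also fell by 1.78 in HD28 minus MSC and rose by 1.68 in dHD28 minus HD28 (adjusted p = 0.0039 and 0.0044 in limma). Eno3 and Galm, which rose by 1.03, were the only enzymes on that list to change in HD28 minus MSC. There 6.77% of all genes were called.

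Of 15 further glucose and lactate carriers and their partners, 3 were higher and 3 lower in hepatocytes than in MSC. In that comparison 30.1% of all genes were called, 11.8% as higher and 18.3% as lower. The fructose carrier Slc2a5 was higher by 2.24. Slc2a2 was higher by 9.63 and Slc16a7, a monocarboxylate carrier, by 6.06, but the MSC levels of both were under the lower quartile of the arrays. With those levels set to the lower quartile, Slc2a2 was at least 413-fold and Slc16a7 at least 34.7-fold higher. Slc2a3, the glucose carrier of neurons, fell by 2.42, Slc2a10 by 2.38 and Emb, a partner of monocarboxylate carriers, by 3.81. Slc2a10 read 3.49 on hepatocyte array 1, under the lower quartile of that array (3.70), so the size of its fall depends on a floor.

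Among 13 genes that control glycolysis or pyruvate entry into mitochondria, 6 were higher and 4 lower in hepatocytes than in MSC. The share of all genes called there was 30.1%. Fbp1, which opposes phosphofructokinase in gluconeogenesis, was higher by 8.56 and Gckr, the regulator of the liver hexokinase, by 5.34. The pyruvate dehydrogenase kinases, which block the entry of pyruvate, were divided, with Pdk2 higher by 3.50 and Pdk4 and Pdk3 lower by 3.93 and 3.74 on the log2 scale. Pdk4 read 3.57 on hepatocyte array 1, under the lower quartile of that array (3.70), so the size of its fall depends on a floor. In HD28 minus MSC, 4 of these 13 were called, against 6.77% of all genes and 0 of the 10 genes. Pdk2 was higher by 1.27, Pdk3 fell by 1.22, and Pfkfb4, which makes the activator of phosphofructokinase, had a log2 change of -1.58. The fourth, named after its values were seen, was Pdp1, a phosphatase that activates pyruvate dehydrogenase, which was 9.11-fold higher (log2 change 3.19, adjusted p = 2.1e-05). Pdk4 was not called, although it read 12.17, 12.36 and 12.30 in HD28, above the 9.33, 10.20 and 10.17 in MSC. Its SD was 2.14 in hepatocytes, against 0.10 in HD28 and 0.49 in MSC, and the SE is pooled over all 5 groups.

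Of 6 genes of fructose use and gluconeogenesis, 5 were higher in hepatocytes than in MSC, where 11.8% of all genes were called as higher. G6pc, which releases free glucose, was higher by 8.06, but its MSC level (3.16, 3.82 and 3.53) lay near the lower quartile and may be background. Khk, the fructokinase, was higher by 5.17. Pck1, the cytosolic carboxykinase, whose MSC level was under the lower quartile, was higher by at least 7.22, while the mitochondrial carboxykinase Pck2 fell by 3.78. Of 11 transcription factors known to act on glycolysis genes, 3 were higher and 3 lower in hepatocytes, against 30.1% of all genes called. Epas1, a hypoxia factor, was higher by 7.41, Hnf4a, a factor of liver identity, by 5.70, and Mlxipl, which binds the carbohydrate response element, by 4.21. The Epas1 level in MSC (3.71, 3.59 and 3.80) also lay near the lower quartile and may be background. Hif1a fell by 1.36, Myc by 1.55 and Mlxip, a relative of Mlxipl, by 1.83.

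Of 6 genes linked to Pkm splicing, 3 fell and 0 rose in hepatocytes relative to MSC, where 30.1% of all genes were called. Ptbp1, which represses the exon of the adult form, fell by 1.91, Srsf3, a splicing factor of the SR family, by 1.83 and Nek2, a kinase of dividing cells, by 3.73. Of 14 hypoxia-response genes outside glycolysis, 2 were higher and 5 lower in hepatocytes, against 30.1% of all genes called. P4ha1 and P4ha2, collagen prolyl hydroxylases, fell by 3.45 and 2.72, Adm, a vasodilator peptide, by 3.27 and Ndrg1 by 2.67, whereas Bnip3, a mitochondrial protein of mitophagy, and Egln3, an oxygen sensor, were higher by 2.13 and 2.01.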

How the data were processed

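The deposited values are log2 expression from RMA (robust multi-array averaging), which the authors ran per the submitters' processing notes, with no version given. RMA subtracts background, brings all arrays to the same quantiles and combines a set's probes into 1 value, so a level is relative to the other genes of its array. Base 2 was inferred from the value range, whose minimum was 1.32. Per the labels, biotinylated cRNA was made from 5 µg of Trizol-extracted RNA. No detection calls were used, and arrays carry no read depth.

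Of 45101 probe sets, 64 were controls, 34945 carried 1 gene symbol in the platform annotation, 932 several and 9160 none. Each of 18193 genes was represented by its brightest set on average. All 10 genes matched the RefSeq table by symbol. All 15 arrays entered 1 limma 3.58.1 model with a mean per group (R 4.3.3; lmFit and eBayes, 10 residual degrees of freedom), with Benjamini-Hochberg adjustment over all genes. Errors of changes are SE of this model and of means SD. The same model on 45037 probe sets tested the sets. Shifts of isoform pairs were tested by exact two-sided permutation of 3 arrays against 3. Only pairs whose partner was annotated were made. The fit was tested on simulated data.

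The genes, the gene lists and the tests were chosen with earlier results of these data known. Named genes were all 10, then from each list at most the 6 with the largest change among those that passed in hepatocytes minus MSC or MLC minus hepatocytes, and the 3 genes most like each member over the arrays. Alternatives were other probe sets per gene, other normalizations, filters, priors and weights, the poly-A spike-in class as a block, the replicate number as a block, and leaving out each array. The motif CACGGG, the contrast of both returns and the floor at the lower quartile were added after the data had been seen. What a shared replicate number stands for is not given in the labels. Deviations of same-numbered dHD28 and HD28 arrays correlated in all 3 pairs (0.32, 0.28 and 0.12), as did those of MLC and dHD28 arrays (0.21, 0.78 and 0.60), so these numbers may pair them; in each of the other comparisons between groups at least 1 pair was under 0.1. The poly-A spike-in controls split the arrays into 6 with a mean of 7.35 to 8.50 and 9 with 4.70 to 5.49, and none of the 10 genes differed between these classes (lowest adjusted p = 0.08, Pklr). Same-numbered dHD28 and HD28 arrays were of the same class in all 3 pairs, and MLC and dHD28 arrays for replicates 2 and 3 but not 1. Replicate number and spike-in class can therefore not be fully told apart in the correlations above.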

Additional observations from a re-analysis of the deposited data

Results flagged for a closer look

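Both returns to stromal medium were set against each other as a contrast of the same limma model, (MLC minus hepatocytes) minus (dHD28 minus HD28), which was added after the data had been seen. Of the 10 genes, 7 passed an adjusted p of 0.05 and a fold of 2, against 23.7% of all genes, and are listed because the change on return differed between the lines. The contrast equals HD28 minus hepatocytes plus MLC minus dHD28, and the second term lay between -0.23 and 0.18 for the 10 genes, so it restates where the lines started and adds no separate evidence. The difference was 5.73 ± 0.79 for Pkm (adjusted p = 0.00016) and 4.72 ± 0.59 for Hk1 (adjusted p = 8.6e-05). It was 3.04 for Pfkp, 2.43 for Hk2, 2.28 for Aldoa and 1.94 for Ldhb, and -1.59 for Pklr, the only one of the 7 below 0. Slc2a1 (1.13, adjusted p = 0.082), Pfkl (1.70, adjusted p = 0.054) and Ldha (-0.48, adjusted p = 0.19) did not pass. Both returns started from different levels, since Pkm averaged 6.77 ± 1.64 in hepatocytes and 12.45 ± 0.26 in HD28 (SD, n = 3 each), and ended at 12.59 ± 0.26 in MLC and 12.54 ± 0.23 in dHD28.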

How the results depend on the processing

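Across 29 alternatives, hepatocytes minus MSC and MLC minus hepatocytes called 8 or 9 of the 10 genes and HD28 minus hepatocytes 8 to 10, while dHD28 minus MSC and MLC minus MSC called 0. Of the changes of single genes under alternatives, 664 kept their direction and side of the threshold. HD28 minus MSC called 1 (Ldha) with no fold limit, and 0 to 1 when each array was left out, the 1 being Slc2a1 without MSC replicate 2. dHD28 minus HD28 called 1 with no fold limit (Ldha), 1 with the mean of all probe sets (Slc2a1, 1.03, adjusted p = 0.048) and 0 to 1 on leaving out each array, the 1 being Slc2a1 without dHD28 replicate 1 (1.25, adjusted p = 0.036). Probe sets called in HD28 minus MSC were 0 to 2 on leaving out each array, 2 without MSC replicate 2. With the replicate block, 9 of the 10 genes were called in hepatocytes minus MSC, and the block changed none of the counts of called genes. It took the step of Ldha between hepatocytes and HD28 to an adjusted p of 0.059, and changed no other step in the order of the group means. The contrast of both returns called 7 of the 10 with the block and 7 or 8 under the other alternatives run, which were chosen after seeing the data.

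With the mean of all probe sets, Pkm minus Pklr shifted by -8.60 (hepatocytes minus MSC), 8.77 (MLC minus hepatocytes) and 8.45 (HD28 minus hepatocytes), Ldha minus Ldhb by 3.01, -2.61 and -4.32 in the same comparisons, and Pfkp minus Pfkl by -0.17 in hepatocytes minus MSC; the sets of Pklr and Ldhb differ in size of change. On leaving out each array, Pkm minus Pklr ranged over -8.08 to -6.18, 6.25 to 8.15 and 6.16 to 8.07, the extremes without hepatocyte replicate 2 or 1. Ldha minus Ldhb ranged over 0.87 to 1.94 in hepatocytes minus MSC and -1.77 to -0.70 in HD28 minus MSC. Slc2a1 minus Slc2a2 ranged over -4.26 to -0.84 in HD28 minus MSC and 7.60 to 11.02 in HD28 minus hepatocytes, the last of each without HD28 replicate 3.

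Centring on housekeeping genes turned Ldha to 0.19 (hepatocytes minus MSC, adjusted p = 0.36) and -0.18 (MLC minus hepatocytes, adjusted p = 0.37), and left Ldhb at 0.87 in MLC minus hepatocytes, under a fold of 2. It moved the median of all genes to 0.55 and -0.61 in these comparisons, with 3951 genes higher and 2107 lower in the first, against 2149 and 3327 before, and 2059 higher and 4493 lower in the second, against 3353 and 2188. In HD28 minus hepatocytes it gave 1967 higher and 3421 lower, against 2786 and 2039. The cause was not tested. Aldoa could not be fitted without probe sets marked as cross-binding. Dim probe sets limit the size of folds, since a level near the lower quartile of an array may be background.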
